A study of Mus musculus with 12 samples.

Results

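Alpha-catenins and the LRRTM genes that lie inside them were followed in mouse cortical neurons in which topoisomerase 1 was inhibited, deleted or both. The 6 genes are Ctnna1, Ctnna2 and Ctnna3, which encode αE-, αN- and αT-catenin, and Lrrtm1, Lrrtm2 and Lrrtm3. They were chosen by their symbols and positions, as host genes and the genes within their introns, among the 23893 genes of the count table. The choice was made after earlier results of the same libraries had been seen, so the p-values below describe these libraries and are not independent evidence. Of the 6 genes, 5 had a mean of at least 1 CPM (TMM-scaled counts per 1000000 counts) over the libraries, as did 13720 genes of the table. Ctnna3 was at 0 to 5 counts per library.

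The 12 polyA RNA-seq libraries were from neuron cultures of the C57BL6 strain, 3 cultures in each of 4 groups. Neurons were prepared from embryos of day E13.5 to E15.5, infected with lentivirus at day in vitro (DIV) 3 and treated from DIV 15 for 3 days. WT-Veh cultures received a tdTomato virus and vehicle (0.003% DMSO), and WT-Topot cultures the same virus and 300 nM topotecan, a TOP1 inhibitor, in the same DMSO. Top1 cKO-Veh and Top1 cKO-Topot cultures received a tdTomato-P2A-CRE virus with vehicle or topotecan. The study's methods describe cultures of both kinds as Top1 fl/fl, so that WT cells carry the floxed exon 3 as well, while the sample labels give their genotype as wild-type. Both viruses used the CaMKIIα promoter, which limits the transgene to neurons, and transduction reached about 85 to 90% of cells, so each Top1 cKO culture held cells without CRE. Labels do not say whether cultures of a group came from separate litters, so p-values concern these cultures only. The fits of counts also share estimates of spread between genes.

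TOP1 relaxes the supercoils that form in DNA as RNA polymerase moves along a gene, and topotecan traps the enzyme on DNA. Alpha-catenins link the cadherin and beta-catenin complex at cell junctions to actin filaments. αE-catenin is found in many tissues, αN-catenin is the form of neurons, and αT-catenin is best known from heart muscle. LRRTM proteins are leucine-rich repeat adhesion proteins of the postsynaptic membrane that bind neurexins and heparan sulfate proteoglycans across the synaptic cleft.

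Each host carried its LRRTM gene in 1 large intron of its coding transcripts that span it and on the opposite strand, with 0 shared exonic bases. Positions are those of the GENCODE vM1 annotation of NCBIM37, the assembly that mm9 names. Ctnna2 spans 1098 kb on the minus strand of chromosome 6, from 76831631 to 77929693. Lrrtm1 spans 15.1 kb on the plus strand, from 77192683 to 77207785, in a Ctnna2 intron of 461.2 kb that is intron 7 or 8 depending on the transcript. Its start is 737 kb from the Ctnna2 start, and 54.3% of the Ctnna2 exonic bases come before it in the direction of Ctnna2 transcription.

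The other pairs differed from this one in size. Ctnna1 spans 135.9 kb on the plus strand of chromosome 18, from 35278542 to 35414427, and Lrrtm2 takes 6.014 kb of its intron 7, from 35368665 to 35374678. Ctnna3 spans 1574 kb on the plus strand of chromosome 10, from 62892846 to 64466415. Lrrtm3 lies in a Ctnna3 intron of 397.9 kb, from 63391220 to 63553025, and with 161.8 kb it is itself longer than Ctnna1. A non-coding Ctnna3 transcript has an exon within the Lrrtm3 span, in an Lrrtm3 intron. The short nested genes are therefore Lrrtm1 and Lrrtm2 only.

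**Figure D1:**
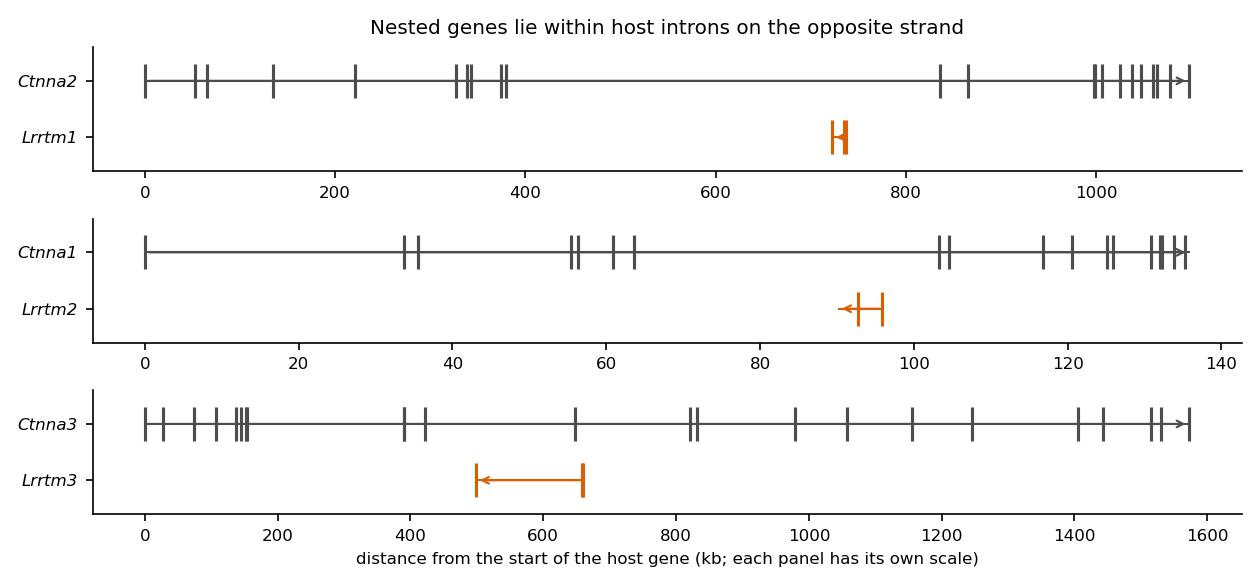
Map of the 3 pairs by distance from the host start in kb, with a scale for each panel. Lines are gene spans, marks are exons (not to scale in width) and arrows give the direction of transcription. Lrrtm1 and Lrrtm2 each lie between neighbouring host exons, 1 exon of a non-coding Ctnna3 transcript lies within Lrrtm3, and Lrrtm1 starts 737 kb into Ctnna2.

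Sequences before the starts of Ctnna2 and Lrrtm1 are shown because this host and its nested gene have separate RefSeq starts. Which promoters the cultures used for either gene was not tested. That of Lrrtm3 is shown beside them as a nested gene of another host, while that of Ctnna3, a transcript close to undetected, is not shown. They are from RefSeq on GRCm38.p6 and hold the bases from 250 to 51 before each RefSeq start, in the direction of transcription. Capitals mark CG dinucleotides, the sites of CpG methylation. The Ctnna2 window is chr6:77979718-77979917 (minus strand), that of Lrrtm1 is chr6:77242227-77242426 (plus strand) and that of Lrrtm3 is chr10:64090306-64090505 (minus strand). Each matched its own chromosome of NCBIM37 at 1 place, and the other chromosomes were not searched.
Ctnna2: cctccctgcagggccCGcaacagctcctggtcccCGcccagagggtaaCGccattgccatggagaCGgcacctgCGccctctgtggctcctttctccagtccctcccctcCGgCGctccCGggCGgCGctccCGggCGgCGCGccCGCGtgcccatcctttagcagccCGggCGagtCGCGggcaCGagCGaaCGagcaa
Lrrtm1: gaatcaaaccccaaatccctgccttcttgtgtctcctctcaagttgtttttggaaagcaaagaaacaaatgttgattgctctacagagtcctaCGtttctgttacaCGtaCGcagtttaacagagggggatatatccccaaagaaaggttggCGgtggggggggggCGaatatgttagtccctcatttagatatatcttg
Lrrtm3: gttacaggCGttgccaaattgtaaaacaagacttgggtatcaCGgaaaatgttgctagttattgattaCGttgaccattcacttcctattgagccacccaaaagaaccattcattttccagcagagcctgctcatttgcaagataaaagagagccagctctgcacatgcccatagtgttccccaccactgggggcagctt

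The Ctnna2 window held 23 CG dinucleotides, against a median of 4 over the 32851 promoter windows of the table, 93.5% of which held fewer. The Lrrtm1 window held 5 and the Lrrtm3 window 3. The letters GGGCGG, on either strand, were found in the Ctnna2 window and in 24.6% of all windows, and not in those of Lrrtm1 and Lrrtm3. TATAAA, which 9.14% of all windows hold on either strand, was in none of the 3. The windows stop short of the bases nearest each start, where a TATA box would lie, so this does not show whether these promoters have one. The Ctnna2 and Lrrtm1 windows thus differed in base composition, as a description of these windows.

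Libraries held 1730164 to 4583777 counts, so that 3 counts corresponded to 0.687 to 1.73 CPM. Top1 was at 117 to 164 CPM in the 6 tdTomato libraries and at 27.1 to 44.0 CPM in the 6 CRE libraries, which do not overlap. All 12 neuron markers were present, with a sum of 5856 to 7712 CPM. Astrocyte markers, 8 of 8 present, summed to 660.5 to 3833 CPM. Microglia, oligodendrocyte lineage, and endothelial and mural cell markers summed to at most 20.2, 297 and 45.8 CPM, with Itgam, Mag and Cldn5 under 1 CPM in every library. The same replicate number in different groups marked libraries that deviated together, so a fit with a term for the number (a replicate block) is set beside any result whose call it alters. That fit draws on spread shared between genes. Its p-values can be far smaller than the 3 differences of a gene alone would give, and do not measure that gene's own spread.

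Per kb of exon, Lrrtm1 was the most abundant of the 6 genes in WT-Veh, at 62.2 ± 12.3 CPM per kb (SD, n = 3). Ctnna2 at 28.7 ± 7.07 and Lrrtm2 at 26.2 ± 6.26 CPM per kb followed and did not differ beyond their spread. Ctnna1 at 13.6 ± 8.37 and Lrrtm3 at 12.2 ± 4.18 CPM per kb came next, again within their spread. αN-catenin was thus the leading alpha-catenin transcript of untreated cultures by mean level, and Ctnna3 at 0.101 ± 0.0538 CPM per kb was close to undetected. Exon lengths are from GENCODE, while the authors counted over RefSeq exons.

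**Figure D2:**
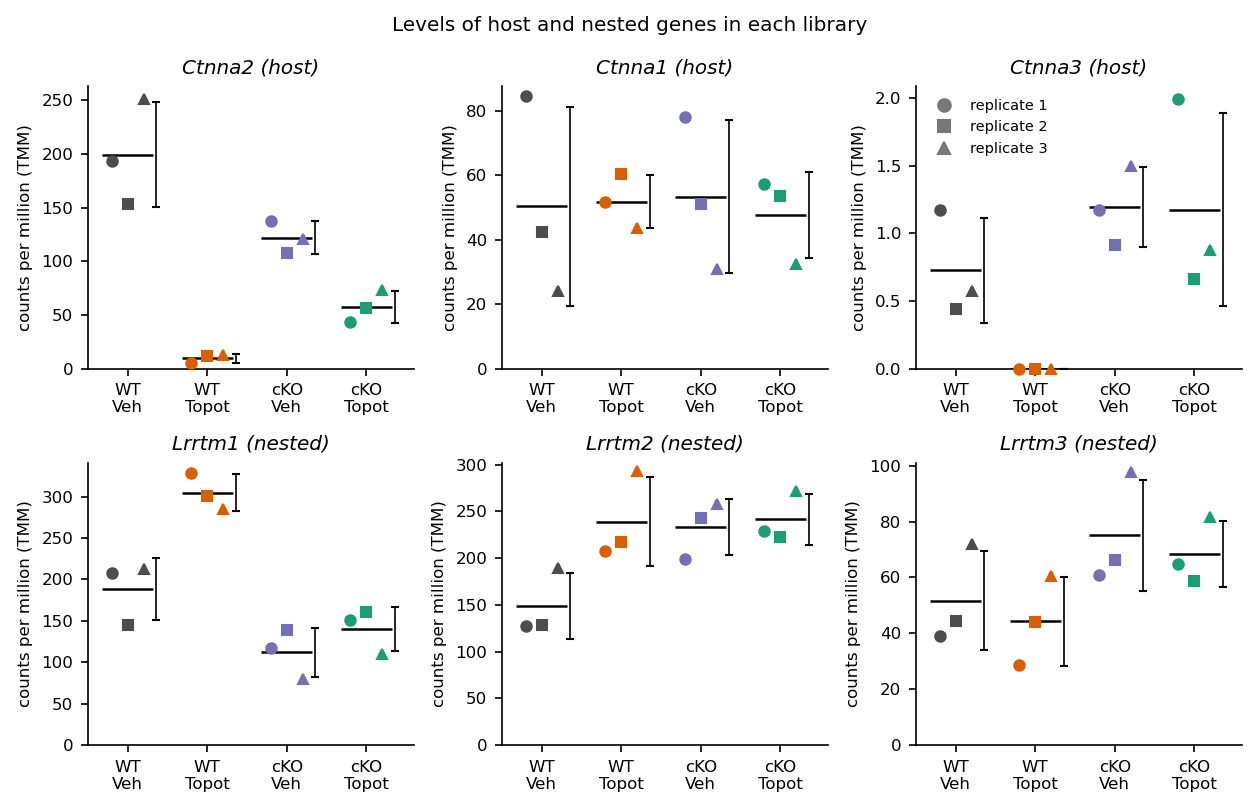
Level of each gene in each library in CPM scaled by TMM, hosts above and nested genes below, each panel with its own axis from 0. Points are cultures (shape gives the replicate number), lines are means and bars are SD of 3 cultures. Ctnna2 is lowest in WT-Topot (4.69 to 12.4 CPM), where Lrrtm1 is highest (284 to 329 CPM).

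Topotecan in WT cells addresses how the pairs respond when TOP1 is inhibited. Ctnna2 fell and Lrrtm1 did not fall with it. Ctnna2 was at 193, 153 and 251 CPM in the WT-Veh cultures 1, 2 and 3, and at 4.69, 11.4 and 12.4 CPM in WT-Topot. The groups did not overlap, and every topotecan culture was over 10 times below every vehicle culture. The log2 fold change of Ctnna2 was −4.38 ± 0.30 (SE), a 20.9-fold lower level, with an adjusted p of 3.12e-08 (edgeR quasi-likelihood test, Benjamini-Hochberg over 23893 genes). Among the 13720 genes with at least 1 CPM it ranked 16 from the lowest, and 5 of the 2015 that span over 100 kb, whose median was −0.43. These bulk values cannot tell fewer cells of a type from less RNA per cell. Summed neuron markers ranged from 5856 to 7712 CPM in WT-Veh and from 6013 to 6636 CPM in WT-Topot. A list of proliferation markers that also holds the progenitor gene Nes summed to 32.2 to 58.2 CPM in WT-Veh and 93.3 to 130 CPM in WT-Topot. Only 2 of its 7 genes had a mean of 1 CPM or more, so the sum rests on few genes and does not measure proliferation as such. Ccnb1 and Aurkb were under 1 CPM in every library, and 1 gene was called higher. The part of these markers and of the neuron markers in the result was not tested.

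Lrrtm1 lies 737 kb downstream within the same host and was at 207, 146 and 213 CPM in WT-Veh and at 329, 301 and 284 CPM in WT-Topot. All topotecan cultures were above all vehicle cultures, by 1.62-fold on average. Its log2 fold change of 0.70 ± 0.18 missed the threshold of 0.01 (edgeR adjusted p = 0.0308). It passed with the replicate block, at an edgeR adjusted p of 1.95e-06, where alternatives ranged from 1.95e-06 to 0.15. The difference within replicate numbers was 0.66, 1.04 and 0.41 on the log2(CPM + 1) scale, higher in 3 of 3. Without WT-Veh replicate 3, the adjusted p was 0.00642. Whether the counting used strand is not given in the sources used here, so reads of unspliced Ctnna2 RNA that cross Lrrtm1 exons cannot be told from Lrrtm1 reads.

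Lrrtm2, whose protein is a postsynaptic neurexin ligand like LRRTM1, was at 127, 129 and 190 CPM in WT-Veh and at 207, 217 and 293 CPM in WT-Topot. These groups did not overlap either. The log2 fold change was 0.70 ± 0.21, with an edgeR adjusted p of 0.0622 without and 6.07e-06 with the replicate block, over a range of 6.07e-06 to 0.35 among alternatives. Without WT-Veh replicate 3 the adjusted p of Lrrtm2 was 0.00203. Its host Ctnna1 gave a log2 fold change of 0.02 ± 0.30 (adjusted p = 1), with a 95% interval of −0.61 to 0.66, and Lrrtm3 gave −0.21 ± 0.28 (adjusted p = 0.986), with an interval of −0.79 to 0.37.

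Of the 5 genes with at least 1 CPM, 1 was called lower and 0 higher at an FDR of 0.01 in WT-Topot, where 2.72% of all genes were called. With the replicate block, 1 was lower and 2 were higher, against 8.25% of all genes. Groups did not overlap for 3 of the 5, against 26% of the 13720 genes.

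Ctnna3 had 4, 1 and 1 counts in the WT-Veh cultures and 0, 0 and 0 in WT-Topot. With Top1 deleted it had 3, 4 and 3 under vehicle and 5, 2 and 2 under topotecan. A count of 0 allows up to 3 counts per library, or 0.859 to 1.28 CPM in WT-Topot, for counting error alone. Levels of αT-catenin transcript were therefore too low for a fold change in any comparison.

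Top1 deletion without drug was compared to ask whether loss of the enzyme acts as the inhibitor does. Here Ctnna2 and Lrrtm1 were both lower, to about the same extent on average. Ctnna2 was at 138, 107 and 121 CPM in Top1 cKO-Veh, below the 153 to 251 CPM of WT-Veh. Its log2 fold change was −0.71 ± 0.21, 1.63-fold lower, with an edgeR adjusted p of 0.176 without and 7.29e-06 with the replicate block (range over alternatives 7.29e-06 to 0.57). Lrrtm1 was at 117, 139 and 80.2 CPM, below the 146 to 213 CPM of WT-Veh. Its log2 fold change was −0.74 ± 0.22, 1.67-fold lower, with an adjusted p of 0.187 without and 1.37e-06 with the block (range 1.37e-06 to 0.412). Within replicate numbers 1, 2 and 3, Lrrtm1 differed by −0.82, −0.07 and −1.40 on the log2(CPM + 1) scale (SD 0.67). Number 2 thus showed almost no difference. Ctnna2 differed by −0.48, −0.51 and −1.05 (SD 0.32). Relative to WT-Veh, the nested gene thus lay below in deleted cultures and above in inhibited cultures, comparisons that share the WT-Veh libraries.

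Lrrtm2 and Lrrtm3 lay on the other side of WT-Veh after deletion. Lrrtm2 was at 199, 243 and 258 CPM in Top1 cKO-Veh, above the 127 to 190 CPM of WT-Veh, with a log2 fold change of 0.66 ± 0.20 (edgeR adjusted p = 0.201, and 3.63e-06 with the replicate block, range 3.63e-06 to 0.543). Lrrtm3 was at 61.0, 66.4 and 97.7 CPM, against 38.9, 44.3 and 72.0 CPM in WT-Veh, so the groups overlapped. Its log2 fold change was 0.55 ± 0.26 (adjusted p = 0.594, and 0.00973 with the block, range 0.00973 to 1), and cultures of the same number differed by 0.64, 0.57 and 0.44 on the log2(CPM + 1) scale. Ctnna1 gave 0.07 ± 0.37 (adjusted p = 1).

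In Top1 cKO-Veh, 0 of the 5 genes were called without the block, where 0.172% of all genes were called, 41 in number. An unadjusted p under 0.05 was seen for 1152 genes in the lower and 932 in the higher direction, and DESeq2 called 160 and 63. With the replicate block 4 of the 5 were called, Ctnna2 and Lrrtm1 lower and Lrrtm2 and Lrrtm3 higher, against 5.56% of all genes. Groups did not overlap for 3 of the 5, against 19.9% of genes.

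Topotecan in Top1 cKO cells tests for an effect of the drug where its target is reduced. Ctnna2 was at 43.8, 56.1 and 73.4 CPM in Top1 cKO-Topot, below all Top1 cKO-Veh cultures (107 to 138 CPM). The log2 fold change was −1.07 ± 0.21, 2.1-fold lower, with an edgeR adjusted p of 0.0799 without and 2.82e-12 with the replicate block (range 2.82e-12 to 0.338). Without Top1 cKO-Veh replicate 3 the adjusted p was 0.00193. Each replicate number had the lower value under topotecan, by 1.63, 0.92 and 0.71 on the log2(CPM + 1) scale. The same list of proliferation markers and Nes summed to 52.6 to 86.0 CPM in Top1 cKO-Veh and 86.6 to 205 CPM in Top1 cKO-Topot. These sums do not overlap but rest on few genes, and their part in the result was not tested. Lrrtm1 was at 151, 160 and 110 CPM against 117, 139 and 80.2 CPM, which overlap, with a log2 fold change of 0.33 ± 0.21 (adjusted p = 1, and 0.068 with the block).

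Lrrtm2 gave 0.06 ± 0.16, with a 95% interval of −0.29 to 0.41, Lrrtm3 −0.12 ± 0.22 (−0.58 to 0.35) and Ctnna1 −0.16 ± 0.30 (−0.78 to 0.47) for this comparison on the log2 scale. No gene of the 5 was called without the block, against 0.00837% of all genes, which is 2 genes. Unadjusted p under 0.05 was seen for 627 genes lower and 404 higher, and DESeq2 called 44 and 9. Ctnna2 alone was called with the block, against 2.59% of genes, and was the 1 of the 5 whose groups did not overlap, against 11.7% of genes.

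Between the topotecan groups, Ctnna2 was 6.06-fold higher in Top1 cKO-Topot than in WT-Topot and Lrrtm1 2.18-fold lower. The log2 fold changes were 2.60 ± 0.30 for Ctnna2 and −1.12 ± 0.18 for Lrrtm1, with edgeR adjusted p of 7.36e-06 and 2.29e-04. Both passed in all 12 alternatives. Lrrtm1 was at 110 to 160 CPM in Top1 cKO-Topot and 284 to 329 CPM in WT-Topot, so the drug-treated groups stood apart for host and nested gene in opposite directions.

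Lrrtm3 gave 0.63 ± 0.24 in the same comparison (edgeR adjusted p = 0.161, and 0.00299 with the replicate block, range 0.00299 to 0.633). Lrrtm2 gave 0.01 ± 0.17, with a 95% interval of −0.35 to 0.37, and Ctnna1 −0.12 ± 0.23. In this comparison 2 of the 5 genes were called, or 3 with the block, where 2.49% and 8.69% of all genes were called. Groups did not overlap for 2 of the 5, against 27.4% of genes.

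**Figure D3:**
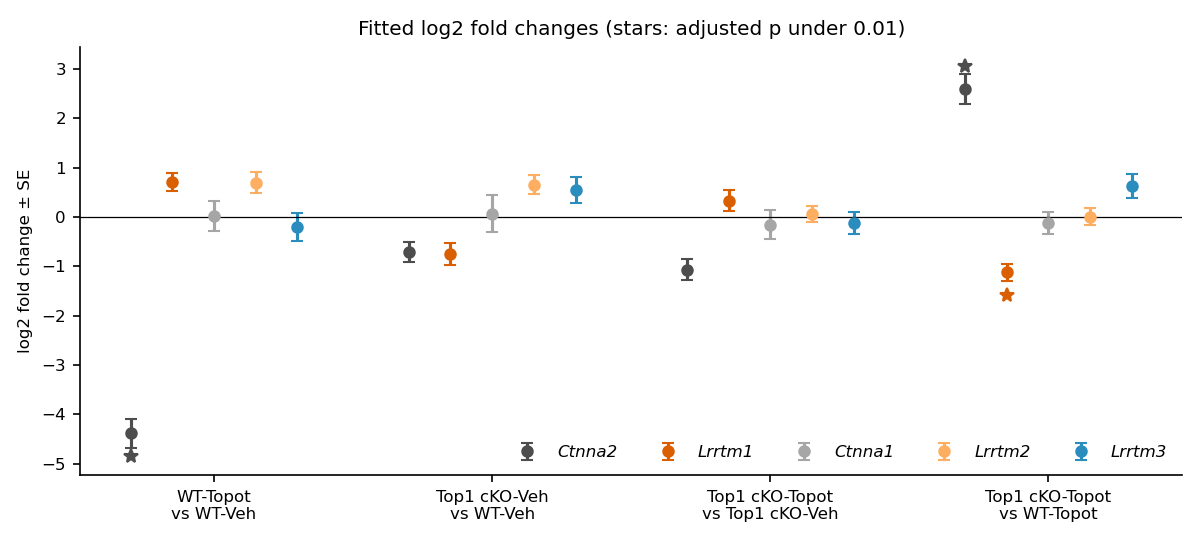
Log2 fold changes of the 5 genes with at least 1 CPM in 4 comparisons; points are edgeR estimates, bars are SE and stars mark an adjusted p under 0.01 without the replicate block. Ctnna2 runs from −4.38 to 2.60, while Ctnna1 stays between −0.16 and 0.07.

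The effect of topotecan on Ctnna2 differed between WT and Top1 cKO cells. The interaction, which is the log2 change in Top1 cKO minus that in WT, was 3.31 ± 0.38 with an edgeR adjusted p of 1.33e-04 over 12 libraries. It passed in all 16 alternatives, with values of 2.98 to 3.51. For Lrrtm1 the interaction was −0.37 ± 0.29 (adjusted p = 0.961), with a 95% interval of −0.97 to 0.23. For Lrrtm2 it was −0.64 ± 0.27 (adjusted p = 0.446, and 0.00456 with the replicate block, range 0.00456 to 0.833), and for Lrrtm3 0.09 ± 0.38. Ctnna2 alone of the 5 was called, and Lrrtm2 joined it with the block, where 0.435% and 3.97% of all genes were called.

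The ratio of host to nested counts within a library does not depend on library scaling. In WT-Veh, Ctnna2 and Lrrtm1 had nearly equal counts, with 0.934 to 1.18 Ctnna2 counts per Lrrtm1 count. In WT-Topot there were 0.0143 to 0.0437. After deletion the ratio was 0.773 to 1.51 with vehicle, around that of WT-Veh, and 0.291 to 0.667 with topotecan. Thus both transcripts had lower means after deletion, though neither was called without the replicate block, and the ratios of the vehicle groups overlapped. Within replicate numbers 1, 2 and 3 the log2 ratio differed upon deletion by 0.34, −0.45 and 0.35, so a modest shift cannot be told from none. Under topotecan the ratio lay below that of vehicle cultures in both genotypes.

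On the log2 scale, with 0.5 added to both counts, the Ctnna2 to Lrrtm1 ratio was 0.07 ± 0.17 (SD, n = 3) in WT-Veh and −5.09 ± 0.86 in WT-Topot, a difference of −5.16. An exact permutation test of 3 against 3 libraries, two-sided, gave p = 0.1, the smallest it allows. For Top1 cKO-Veh (0.15 ± 0.49) the difference from WT-Veh was 0.08 (exact permutation p = 0.8), and for Top1 cKO-Topot (−1.29 ± 0.63) the difference from Top1 cKO-Veh was −1.44 (exact permutation p = 0.1). The drug shift was smaller in deleted cells by 3.97, 3.64 and 3.56 in replicate numbers 1, 2 and 3.

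**Figure D4:**
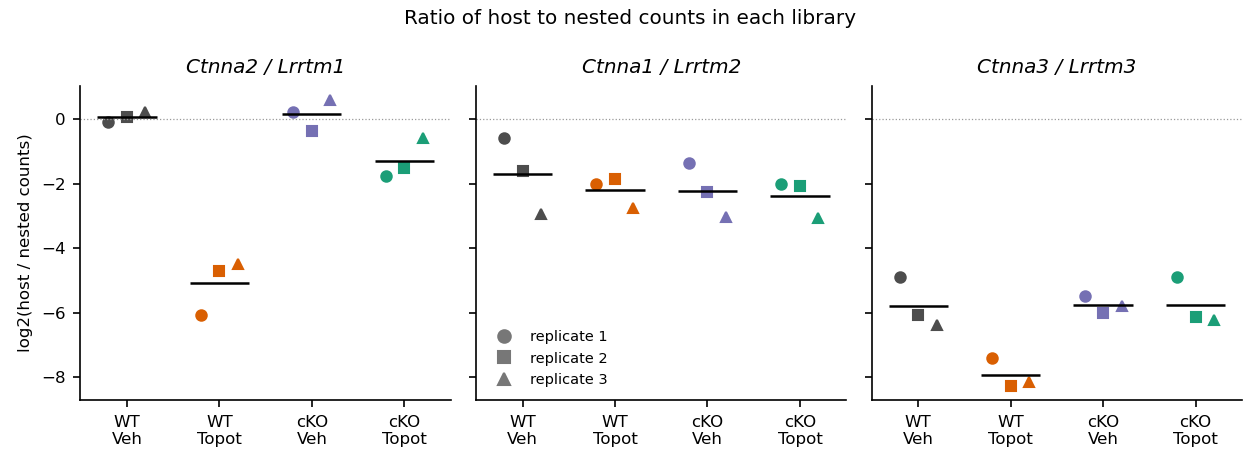
Log2 ratio of host to nested counts in each library for the 3 pairs; lines are means of 3 cultures and shapes give replicate numbers. The Ctnna2 to Lrrtm1 ratio drops to a mean of −5.09 in WT-Topot, while Ctnna1 to Lrrtm2 group means lie between −2.37 and −1.71; Ctnna3 ratios rest on at most 5 host counts.

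For Ctnna1 and Lrrtm2 the log2 ratio of WT cultures was −1.71 ± 1.19 with vehicle and −2.20 ± 0.48 with topotecan. That of Top1 cKO cultures was −2.21 ± 0.85 with vehicle and −2.37 ± 0.60 with topotecan. No difference between groups was larger than the larger SD of the groups compared. The exact permutation p was 0.5 for the drug in WT, 0.9 for the drug in Top1 cKO, and 0.6 for deletion both under vehicle and under topotecan. Within replicate numbers 1, 2 and 3, Top1 cKO-Veh lay below WT-Veh by 0.76, 0.65 and 0.09, a mean difference of −0.50 with an SD of 0.36. An exact sign permutation test of these 3 differences gave p = 0.25, the smallest that 3 pairs allow. Under topotecan the differences upon deletion were 0.01, −0.21 and −0.32 (mean −0.18, SD 0.17, exact sign permutation p = 0.5). Those 4 comparisons between groups were made for each of the 3 pairs, and since 3 against 3 libraries cannot go below 0.1, none passes 0.05 before or after adjustment. The Ctnna3 to Lrrtm3 ratio was set by host counts of 0 to 5 and its difference in WT-Topot depended on the number added to the counts, so no comparison was drawn from it.

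Ctnna1 varied more with the replicate number than with the group. It was at 51.6 to 84.6 CPM in the 4 libraries numbered 1, 42.5 to 60.4 CPM in those numbered 2 and 24.2 to 43.7 CPM in those numbered 3. Summed astrocyte markers were at 1426 to 3833, 723 to 1610 and 660.5 to 1344 CPM in the same libraries, and their part in the Ctnna1 values was not tested. By group, these markers summed to 1306 to 3425 CPM with vehicle and 681 to 1426 CPM with topotecan in WT, and to 1344 to 3833 and 660.5 to 1825 CPM in Top1 cKO, and 2 of the 8 were called lower in WT-Topot.

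Other genes that the annotation places within introns of long hosts provide a background for these pairs. The annotation gave 83 other pairs with hosts over 100 kb and both genes at 1 CPM or more, in 57 hosts, 61 of them on opposite strands. In WT-Topot against WT-Veh, 7 of the 83 had a host called lower, 2 a nested gene called higher, and 0 had a called host and a called nested gene together with the host lower. The median log2 fold change was −0.18 for hosts and 0.02 for nested genes, and the median difference within a pair was −0.39. Hosts recurred among these pairs, and 1 host, Fgfr2 (−0.14), gave 19 of the 83, while the 7 pairs with a host called lower came from 6 hosts. Dnajb3 recurred as the nested gene of several Ugt1a hosts. All pairs rest on the GENCODE gene models, which were not checked against the RefSeq exons that were counted. Whether each gene also lies within its host by RefSeq, those placed in Fgfr2 included, was therefore not established. Without Fgfr2 the median was −0.35 for hosts and 0.04 for nested genes over 64 pairs, and the median difference was −0.67. With 1 value for each of the 57 hosts, the median was −0.34 for hosts and −0.66 for the difference. Both of these alternatives were chosen after seeing the data. No other pair had a difference between host and nested gene as large and negative as that of Ctnna2 and Lrrtm1, whose position at the extreme is a description, since the pair was proposed with these values known.

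The 5 other pairs with the most negative hosts were all on opposite strands. Astn2, which spans 1024 kb and encodes a neuronal membrane protein, gave −3.90 ± 0.52 (edgeR adjusted p = 5.57e-05) around Trim32, a ubiquitin ligase gene, at 0.16 ± 0.17 (adjusted p = 0.893). Nbea, for the trafficking protein neurobeachin, gave −2.45 ± 0.20 (adjusted p = 2.76e-07) around Mab21l1 at 1.32 ± 0.62 (adjusted p = 0.351). Prkg1, for a cGMP-dependent kinase, gave −2.36 ± 0.47 (adjusted p = 0.00374) around Cstf2t at 0.33 ± 0.17 (adjusted p = 0.456). In these 3 pairs the host fell, and the nested gene did not pass the test. Mab21l1 had a mean of only 3.71 CPM, so its failed test says little. Cmss1 with Filip1l (−3.13 and 0.66) and Dock1 with Fam196a (−1.94 and −0.30) had neither gene called. Cmss1 and Filip1l were low, at means of 1.11 and 1.91 CPM.

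**Figure D5:**
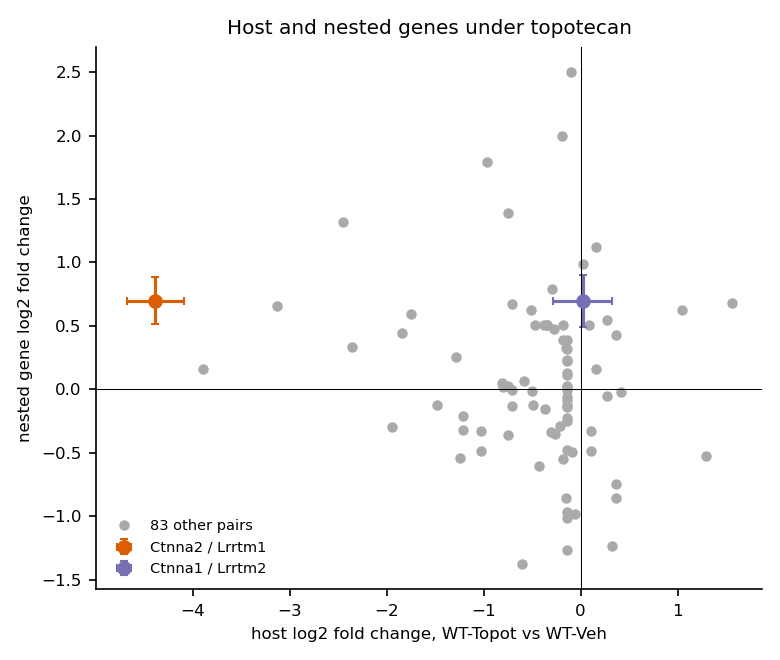
Log2 fold change in WT-Topot against WT-Veh of the nested gene (vertical axis) against that of its host (horizontal axis), for 83 other pairs (grey), Ctnna2 and Lrrtm1 (orange) and Ctnna1 and Lrrtm2 (purple), with SE bars on the last 2. Hosts can recur, and Ctnna3 is left out for its low counts; Ctnna2 with Lrrtm1 lies farthest left, at −4.38 and 0.70.

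Genes whose levels ran most like those of Ctnna2 over the 12 libraries, among 9506 genes with at least 10 CPM, were B3galt1, Fam155a and Slc35f1, with Pearson r of 0.983, 0.981 and 0.979 on log2(CPM + 1). B3galt1 was at 94.3 and 23.4 CPM in WT cultures with vehicle and topotecan, and at 75.6 and 45.9 CPM in Top1 cKO cultures. For Lrrtm1 they were Nono, Tbc1d9b and Samd14, at 0.978, 0.950 and 0.940. Samd14 was at 130, 197, 82.2 and 91.0 CPM in the same order of groups. Between Ctnna2 and Lrrtm1 themselves r was −0.657. The 12 points share 4 groups and 3 replicate numbers, so these are descriptions.

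The nearest relatives that are not nested in an alpha-catenin gave a mixed picture. Lrrtm4, the fourth member of the LRRTM family, spans 791 kb and was at 77.6 ± 19.4 CPM in WT-Veh and 57.0 ± 7.65 CPM in WT-Topot, with a log2 fold change of −0.43 ± 0.22 (edgeR adjusted p = 0.445). It was not called in any comparison, and the interval in WT-Topot ran from −0.90 to 0.03. Lrrc4c, for the netrin-G ligand NGL-1, spans 1313 kb and fell from 269 ± 10.1 to 116 ± 13.4 CPM in WT-Topot, by 1.21 on the log2 scale (adjusted p = 1.63e-04). In Top1 cKO-Veh it was at 149 ± 28.0 CPM (adjusted p = 0.0477, and 2.57e-10 with the replicate block). Its relatives Lrrc4 (169.9 kb) and Lrrc4b (34.33 kb) were at 144 and 185 CPM in WT-Veh and 180 and 250 CPM in WT-Topot, neither called without the block (adjusted p = 0.572 and 0.279), and Lrrc4b called with it (0.00721). In Top1 cKO-Veh Lrrc4b was at 259 ± 23.4 CPM (adjusted p = 0.359, and 0.00145 with the block). The interaction of Lrrc4c was 0.96 ± 0.24 (adjusted p = 0.0542, and 1.84e-04 with the block).

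Vcl, for the alpha-catenin relative vinculin, gave −0.04 ± 0.29 in WT-Topot (edgeR adjusted p = 1). Ctnnal1, for alpha-catulin, was at 6.36 ± 1.66 CPM in WT-Veh and 16.0 ± 1.695 CPM in WT-Topot, a log2 fold change of 1.29 ± 0.34 (adjusted p = 0.0302, and 5.08e-04 with the replicate block). Of the alpha-catenin family, Ctnna2 was thus the one that fell under topotecan among the genes with at least 1 CPM, and Ctnna1 and Vcl had intervals that include 0.

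A list of 23 genes, mainly cadherins and catenins, was written with earlier results of these data known. A place on it does not mean that the protein binds a catenin. In WT-Topot 5 were lower and 0 higher (10 and 0 with the replicate block). The median log2 fold change was −0.53, against 0.03 over the 13720 genes and −0.43 over the 2015 of those that span over 100 kb. The part of gene length in the values of this list was not tested. Over all genes tested, 2.72% were called in this comparison, and 8.25% with the block. Cdh13, for T-cadherin, went from 107 ± 19.8 to 4.95 ± 4.91 CPM (−4.34 ± 0.39, edgeR adjusted p = 7.40e-07), Cdh12 from 32.6 ± 13.7 to 4.29 ± 1.03 CPM (−2.88 ± 0.36, 3.11e-05) and Ctnnd2, for δ-catenin, from 240 ± 34.0 to 52.2 ± 15.1 CPM (−2.19 ± 0.22, 2.04e-06). These span 1041, 478 and 857 kb. In Top1 cKO-Veh 0 were called (6 lower with the block), where 0.172% and 5.56% of all genes were called, and the median was −0.10 against 0.00. Genes that span over 100 kb had a median of −0.05 there.

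For topotecan in deleted cells 0 of the 23 were called (3 lower with the replicate block), against 0.00837% and 2.59% of all genes, with a median of −0.15 against 0.00. The median of genes that span over 100 kb was −0.12. Against WT-Topot, Jup, for plakoglobin, was lower by 1.13 and the classical cadherins Cdh4 and Cdh8 were higher by 1.28 and 1.18 on the log2 scale (edgeR adjusted p of 0.0045, 9.12e-04 and 0.00641). With the replicate block 1 of the 23 was lower and 6 were higher, and 2.49% of all genes were called without and 8.69% with the block. The interaction was called for Cdh13 (3.09 ± 0.59, adjusted p = 0.00831) and Cdh8 (1.87 ± 0.32, adjusted p = 0.00466), in the direction of the Ctnna2 interaction. With the block 4 interactions were called, all positive, against 0.435% of all genes without and 3.97% with it.

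Another list held 20 genes for neurexins, glypicans, syndecans, receptor phosphatases, scaffolds, AMPA receptor subunits and neuroligins. A place on it does not mean that the protein binds an LRRTM protein. In WT-Topot 8 of the 20 were lower and 0 higher (10 and 1 with the replicate block), where 2.72% and 8.25% of all genes were called. Their median log2 fold change was −0.31, against 0.03 over the 13720 genes and −0.43 over the 2015 of those that span over 100 kb. The part of gene length in the values of this list was not tested. Nrxn3, a presynaptic neurexin gene of 1612 kb, went from 248 ± 66.0 to 21.1 ± 4.88 CPM (−3.55 ± 0.25, edgeR adjusted p = 3.52e-08). Gpc5 and Gpc6, which encode glypicans, gave −3.55 ± 0.46 and −3.26 ± 0.36 (adjusted p of 3.84e-05 and 5.97e-06). While Lrrtm1 and Lrrtm2 were at their highest or near it in WT-Topot, several genes of this list were at low levels in the same libraries.

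In Top1 cKO-Veh 2 of the 20 were lower, and 8 lower and 2 higher with the replicate block, against 0.172% and 5.56% of all genes, with a median of −0.15 against 0.00. Genes that span over 100 kb had a median of −0.05 in this comparison. Ptprd, for a receptor phosphatase, went from 281 ± 9.01 to 113 ± 26.1 CPM (−1.31 ± 0.20, edgeR adjusted p = 0.00639), and Dlg2, for the scaffold PSD-93, from 968 ± 131 to 425 ± 81.9 CPM (−1.19 ± 0.18, adjusted p = 0.00694). Topotecan in Top1 cKO cells gave 0 calls (9 lower with the block), against 0.00837% and 2.59% of all genes. Between the topotecan groups Nrxn3 and Gria1, an AMPA receptor subunit gene, were higher in Top1 cKO by 1.30 and 1.13 on the log2 scale (edgeR adjusted p of 0.0011 and 3.67e-04). With the block 1 was lower and 2 were higher, where 2.49% and 8.69% of all genes were called. Nrxn3 had the 1 called interaction without the block, 2.34 ± 0.31 (adjusted p = 5.52e-04). With the block 1 interaction was negative and 7 were positive, against 0.435% of all genes without and 3.97% with it.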

How the data were processed

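The deposited table holds raw counts over RefSeq exons by gene symbol, made by the authors from paired-end reads filtered with TagDust and aligned to mm9 with TopHat, whose versions, like the counting program, its use of strand and the RefSeq release, are not given in the sources used here; reads on rRNA genes were removed. Counts were scaled by TMM and tested with the quasi-likelihood test of edgeR 4.0.16 (R 4.3.3) on the 6 libraries of 2 groups, the interaction on all 12, without a gene filter. Adjusted p is Benjamini-Hochberg's over 23893 genes, with 0.01 as the FDR. CPM use TMM-scaled sizes. Depth was 1730164 to 4583777 counts, and floors cover counting error only.

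Deviations from group means over 13720 genes correlated at 0.261 to 0.485 in the 18 pairs of libraries with the same replicate number and at −0.384 to −0.0494 in the 36 others. The pairing comes from the labels' numbers and these values.

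Of the symbols, 21013 matched GENCODE vM1 directly, 1037 through a synonym and 1843 not. Promoter windows are from RefSeq. The tests were first tested on simulated data. Genes named beside the 6 are the members of the relatives lists, up to 3 called genes per direction and list with the largest change, the 3 most correlated genes and the 5 pairs with the lowest hosts. Members and lists were chosen with earlier results of these data known. Alternatives were DESeq2 1.42.0, RLE factors, the edgeR exact test, filterByExpr, the replicate block, 1 fit of 12 libraries, 2 other ratio scales, and leaving out each library. Leaving out Fgfr2 pairs and taking 1 value per host were added after seeing the data.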

Additional observations from a re-analysis of the deposited data

Results flagged for a closer look

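The effect of topotecan on Ctnna2 differed between genotypes: the log2 change in Top1 cKO cells minus that in WT cells was 3.31 ± 0.38 (edgeR quasi-likelihood interaction, adjusted p = 1.33e-04). Ctnna2 was 20.9-fold lower under topotecan in WT and 2.1-fold lower in Top1 cKO. The sign of the difference was the same in 3 of 3 replicate numbers for the ratio to Lrrtm1.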

How the results depend on the processing

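Ctnna2 kept its direction and its side of the threshold in all alternatives for WT-Topot against WT-Veh (log2 −4.60 to −4.06), Top1 cKO-Topot against WT-Topot (2.27 to 2.81) and the interaction, and Lrrtm1 did for Top1 cKO-Topot against WT-Topot (−1.23 to −0.97). The number of the 5 genes called in WT-Topot was 2 by DESeq2 and 3 with the replicate block, and 1 to 3 over leave-one-out fits. In Top1 cKO-Veh it was 4 with the replicate block. For topotecan in Top1 cKO it was 1 by DESeq2, by the exact test of edgeR and with the replicate block, and 0 to 1 over leave-one-out fits. The interaction had 2 with the replicate block. For the 5 genes the block changed no call other than those given with the results, and leave-one-out fits with 2 cultures in a group pool the spread over both groups. The log2 difference of the Ctnna3 to Lrrtm3 ratio depended on the constant added: −2.16 in WT-Topot against WT-Veh became −0.96 with 2 added and −0.54 on log2(CPM + 1), 2.19 between the topotecan groups became 0.76 and 0.41, and the interaction of 2.17 became 1.06 and 0.60. Signs turned only in values that were never called. Ctnna1 in WT-Topot gave −0.0049 with filterByExpr, and its leave-one-out ranges were −0.29 to 0.62 in WT-Topot, −0.31 to 0.67 in Top1 cKO-Veh, −0.41 to 0.21 for topotecan in Top1 cKO, −0.27 to 0.089 between the topotecan groups and −0.79 to 0.18 for the interaction. Lrrtm2 ranged from −0.040 to 0.14 for topotecan in Top1 cKO and −0.082 to 0.19 between the topotecan groups, and Lrrtm3 from −0.50 to 0.10 in WT-Topot, −0.26 to 0.11 in Top1 cKO and −0.21 to 0.36 for the interaction. The causes were not tested. At these depths Ctnna3 could not be compared.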
